A study of Mus musculus with 12 samples.

Results

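Aminoacyl-tRNA synthetases are the enzymes that join each amino acid to its transfer RNA, and their genes were followed in mouse hip cartilage before and after injury. The set held 31 genes: 20 enzymes of the cytosol, 10 enzymes of the mitochondrion, whose symbols end in 2, and Aarsd1, a free-standing protein that removes serine wrongly joined to alanine tRNA. All features of the normalized table that carry one of these symbols were taken. They covered 22 of the 31 genes with 39 features, out of 15434 gene symbols in the table: 17 cytosolic enzymes, 4 mitochondrial enzymes (Fars2, Lars2, Sars2 and Wars2) and Aarsd1. A further 5 members had features only under an older symbol that a second deposited annotation pairs with the current one, namely Farsa (Farsla), Ears2 (3230401I01Rik), Iars2 (2010002H18Rik), Mars2 (C730026E21Rik) and Tars2 (2610024N01Rik). These 5 were counted apart from the 22, which is said at each count. Cars, Yars, Nars2 and Yars2 had no feature in the normalized table. The file's symbol Hars2 was left out, because the file itself defines that gene as a D-tyrosyl-tRNA deacylase.

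The series held 12 one-colour Illumina bead arrays of total RNA from the hip cartilage of C57BL6 mice of 4 to 6 weeks, 3 arrays in each of 4 groups. The mice were wildtype (WT) or lacked Mapk9, which encodes the stress-activated kinase JNK2 (Mapk9 KO). Injury was the avulsion of the femoral epiphysis from freshly culled animals. By the study's account the cartilage so taken was frozen at once as control or kept 4 h in serum-free medium as injured. That account does not mention the Mapk9 KO. The Mapk9 KO arrays carry the same CTRL and 4 h labels as the WT arrays, and the same handling is assumed for them. The groups named injured and CTRL thus differ in the time after avulsion and in culture, which cannot be told apart in any comparison below. Per the study's methods, each replicate of the control and injured sets pooled the hips of several animals; how the Mapk9 knockout was made, and in which tissues, is not given in the sources used here. For the Mapk9 KO arrays nothing used here says that replicates came from separate mice, and their p-values may measure technical spread.

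A synthetase activates its amino acid with ATP and passes it to the matching tRNA, so that the ribosome reads the code correctly. The cytosol and the mitochondrion each translate with their own set of enzymes, nearly all of them encoded by separate nuclear genes. Gars and Kars are exceptions, since 1 gene gives both the cytosolic and the mitochondrial enzyme. In cells short of amino acids or under endoplasmic reticulum stress, the transcription factor ATF4 binds composite C/EBP-ATF sites (CARE) in genes of amino acid supply, among them several cytosolic synthetases.

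The CARE motif was looked for as TGATGNAAN on both strands in promoter windows of RefSeq genes, mouse build GRCm38.p6, from 250 bases before to 50 bases after the listed start. It was present in the windows of 5 of the 12 listed cytosolic enzymes that have a window (Aars, Gars, Iars, Tars and Yars) and in 0 of the 10 mitochondrial ones. Cars, Hars, Lars, Mars, Nars, Rars, Vars and Wars had no window under their symbol, so the motif was not looked for in them. Over all 27025 genes with a window, 4.50% held it. A match is a description of letters and says nothing of binding in these hips. Of the 10 cytosolic enzymes with both a window and a feature in the normalized table, 4 held the motif, and the stretches around it are shown for these so that they can be set beside the injury values. Each is written 5′ to 3′ in the direction of the gene, and capitals mark the motif, which in all 5 stretches reads on the opposite strand.
Iars, chr13:49682126-49682155, + strand, first motif base at position 7 after the start: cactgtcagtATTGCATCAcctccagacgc
Aars, chr8:111033704-111033763, + strand, motif starting at position -113 from the start: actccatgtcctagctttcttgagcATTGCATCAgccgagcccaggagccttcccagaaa
Aars, chr8:111033840-111033869, + strand, second motif, position 9 after the start: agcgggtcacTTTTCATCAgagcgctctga
Gars, chr6:55037941-55038000, + strand, position -31: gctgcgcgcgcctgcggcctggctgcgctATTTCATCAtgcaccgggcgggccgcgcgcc
Tars, chr15:11399659-11399718, - strand, position -16: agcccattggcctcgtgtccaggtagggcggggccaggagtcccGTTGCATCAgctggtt

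A feature on the array is a 50-base probe, and 14 members had more than 1. The values of a gene are those of its brightest probe, the one with the highest mean over all 12 arrays, and the other probes are given where they differ. For the 3 members past the 2-fold threshold in both genotypes, the first 30 bases of the brightest probe are shown so that the transcript measured can be found. The probes lie on chromosomes 13, 3 and 3, and no coordinates are given because the files name no build for them.
Iars probe: cacctatgcagtcatgttgggggagtgtcc
Sars probe: ggacagagaggccgagaaccactcctcacc
Wars2 probe: aggccaattgcctgtttagctctgtggtct

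All 17 cytosolic enzymes were detected on all 12 arrays (detection p under 0.05) at their brightest probe. Of the 4 mitochondrial enzymes, Fars2, Lars2 and Wars2 were detected on all 12, and Sars2 on 1 array only. Levels of different probes cannot be set against each other on these arrays, because probes differ in how brightly they bind. Cytosolic and mitochondrial enzymes were therefore compared in their change with injury, which is taken within a probe.

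In WT hips the cytosolic enzymes that passed the test all rose with injury. Iars, the isoleucine enzyme, and Sars, the serine enzyme, rose past the study's threshold (over 2-fold with adjusted p under 0.05), 2 of 17 genes, where 7.50% of all 15434 genes rose past it. By adjusted p alone, 6 of 17 (35.3%) rose, against 12.7% of all genes, and 0 fell: Aars, Lars, Nars and Vars joined Iars and Sars. The log2 change was above 0 for all 17, from 0.0098 for Qars to 1.35 for Sars, with a median of 0.40. The median over all genes was -0.018. The count of 6 was 3 without WT CTRL replicate 3, WT injured replicate 1 or WT injured replicate 3, 2 without WT injured replicate 2, and 2 by the methods' t-test after the same adjustment. Adjusted p-values here and below are from limma with Benjamini-Hochberg adjustment over all 21004 features.

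Sars had normalized log2 intensities of 9.47, 9.42 and 9.40 on the WT CTRL arrays and 10.50, 10.96 and 10.90 on the WT injured arrays. All 3 injured values lay more than 1 log2 unit above the highest control. In the Mapk9 KO the values were 9.31, 9.72 and 9.49 in CTRL and 10.55, 10.73 and 10.54 after injury. The groups did not overlap in either genotype. The log2 change was 1.35 (SE 0.20, adjusted p = 0.0011, 2.55-fold) in WT and 1.10 (SE 0.18, adjusted p = 0.00068, 2.15-fold) in the Mapk9 KO. A second Sars probe, listed in the file as Sars1, was at 1.04 in WT and at 1.54 in the Mapk9 KO, but it was detected on 2 of 3 WT CTRL arrays and 1 of 3 Mapk9 KO CTRL arrays, so these sizes are taken against a level near background.

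Iars read 10.39, 10.17 and 10.31 in WT CTRL and 11.33, 11.55 and 11.27 in WT injured. Mapk9 KO arrays gave 9.92, 10.42 and 10.36 in CTRL and 11.09, 11.49 and 11.44 after injury. Every injured array was above every control array of either genotype. The log2 change was 1.09 (SE 0.19, adjusted p = 0.0028) in WT and 1.11 (SE 0.20, adjusted p = 0.0014) in the Mapk9 KO. The second Iars probe gave 1.17 and 1.15, so both probes showed changes of nearly the same size. Iars and Sars kept an adjusted p under 0.05 in both genotypes whichever array was left out, up to 0.018 for Iars and 0.0078 for Sars in WT. Without Mapk9 KO CTRL replicate 1, its lowest array, the Mapk9 KO change of Iars was 0.95, under 2-fold.

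Nars, the asparagine enzyme, changed by 0.95 (SE 0.22, adjusted p = 0.011) in WT and 0.96 (SE 0.24, adjusted p = 0.0095) in the Mapk9 KO, just below 2-fold in both. Its values ran from 9.50 to 9.78 in WT CTRL and from 10.23 to 10.87 in WT injured. Without WT injured replicate 2 the WT call was lost, with an adjusted p of 0.056. Nars was past 2-fold without WT CTRL replicate 2 or WT injured replicate 1, and without Mapk9 KO CTRL replicate 2 or 3 or Mapk9 KO injured replicate 1. Aars, the alanine enzyme, changed by 0.71 (adjusted p = 0.035) in WT and 0.55 (adjusted p = 0.024) in the Mapk9 KO. Lars, the leucine enzyme, changed by 0.66 (adjusted p = 0.041) and 0.57 (adjusted p = 0.027). These were small changes close to the threshold. The Aars call in WT was lost on leaving out any of 5 of the 6 arrays (all but WT CTRL replicate 1), with adjusted p up to 0.15, and the Lars call on leaving out any of 5 (all but WT CTRL replicate 2), up to 0.14. In the Mapk9 KO, 4 of 6 omissions ended each of these calls, up to 0.083 for Aars and 0.089 for Lars. The omissions that kept them were those of CTRL replicates 2 and 3 for Aars, and of CTRL replicate 2 and injured replicate 3 for Lars.

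**Figure D1:**
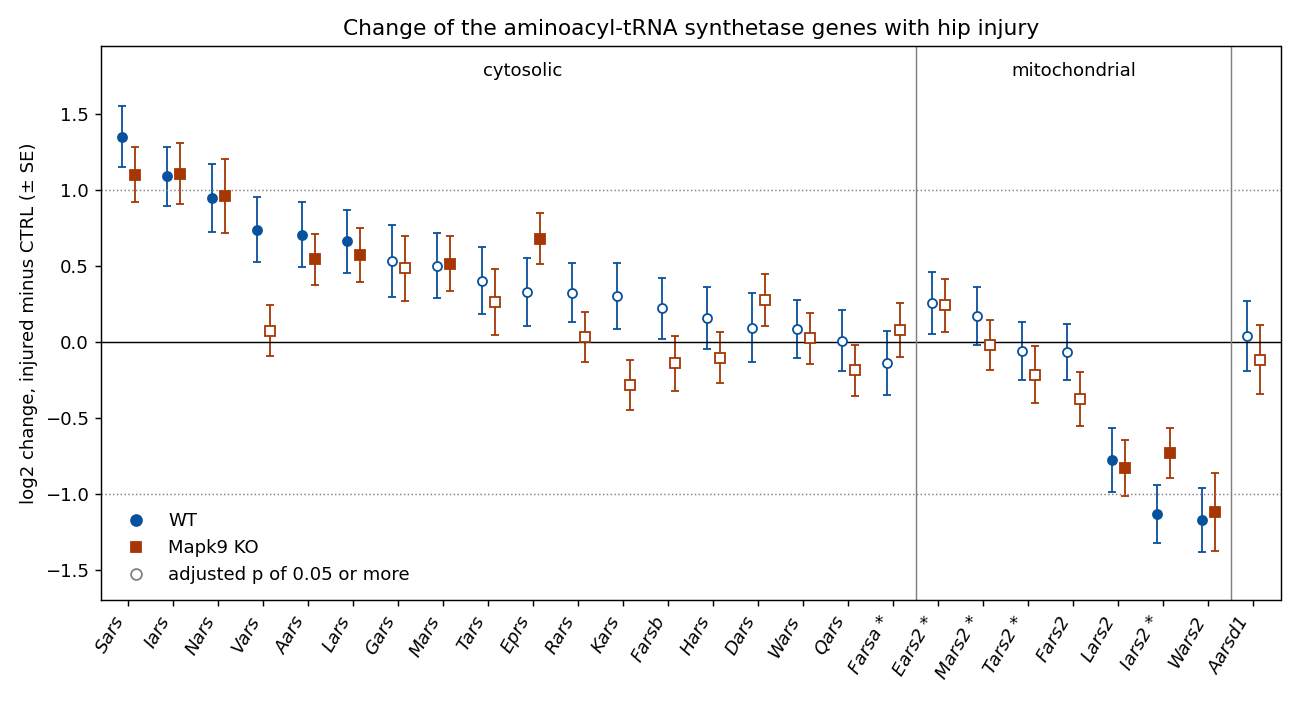
Log2 change with injury (injured minus CTRL, y axis, bars are the standard error) for members at their brightest probe in WT (circles) and Mapk9 KO (squares), 3 arrays per group. Filled symbols have an adjusted p under 0.05, dotted lines mark 2-fold, and asterisks mark the 5 members found under an older symbol; Sars2, detected on 1 array only, is not drawn; the called cytosolic enzymes lie above 0 and the called mitochondrial enzymes Lars2, Iars2 and Wars2 below it.

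In the Mapk9 KO, Iars and Sars were again the 2 of 17 cytosolic enzymes past 2-fold, where 9.0% of all genes rose so far. By adjusted p alone 7 of 17 (41.2%) rose, against 18.1% of all genes, and 0 fell. The 7 were Aars, Eprs, Iars, Lars, Mars, Nars and Sars, and the count was 4 without CTRL replicate 1 or injured replicate 2. The change was above 0 for 13 of 17 genes. The median was 0.27, or 0.46 without injured replicate 1, with a median of -0.036 over all genes. Eprs, which holds both the glutamate and the proline enzyme in 1 chain, rose by 0.68 (SE 0.17, adjusted p = 0.0084) and was at 0.33 (SE 0.22, adjusted p = 0.32) in WT. Mars, the methionine enzyme, rose by 0.52 (adjusted p = 0.043) and was at 0.50 in WT (adjusted p = 0.12). The Mars call was lost on leaving out any of 5 arrays (all but injured replicate 1), with adjusted p up to 0.14, and the Eprs call on leaving out none.

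The remaining cytosolic enzymes did not pass in either genotype at their brightest probe by the fit without a block. Gars, the glycine enzyme, was at 0.53 in WT (adjusted p = 0.13) and at 0.48 in the Mapk9 KO (adjusted p = 0.10), and passed in the Mapk9 KO with the replicate number as a block (limma, adjusted p = 0.031). Qars, the glutamine enzyme, had a log2 difference of 0.0098 in WT (95% interval -0.43 to 0.45) and of -0.18 in the Mapk9 KO (-0.55 to 0.19). Wars, the tryptophan enzyme, was at 0.084 (-0.34 to 0.51) and 0.025 (-0.34 to 0.39). These intervals bound the change of Qars and Wars below 1.5-fold in WT but do not show that it was 0. Dars, Farsb, Hars, Kars, Rars and Tars lay between 0.094 and 0.40 in WT and between -0.28 and 0.27 in the Mapk9 KO. Aarsd1 was at 0.039 (SE 0.23) and -0.12 (SE 0.23). Farsa, under its older symbol, was at -0.14 and 0.079.

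Some members had probes with unlike values. The second probe of Dars, the aspartate enzyme, was at -1.15 in WT (SE 0.46, adjusted p = 0.093) and at 0.60 in the Mapk9 KO (adjusted p = 0.11), while its brightest probe was at 0.094 and 0.27. On the WT injured arrays that second probe read 9.25, 7.01 and 7.97. The second probe of Kars, the lysine enzyme, was detected on 2 of 3 WT CTRL arrays and on no WT injured array. Its values in the 2 groups overlapped and the difference did not pass (adjusted p = 0.087), so no change is given for it. The Aars and Eprs second probes passed the test in the Mapk9 KO (0.71 and 0.64) and were at 0.20 and -0.071 in WT; that of Aars was detected on 1 of 3 Mapk9 KO CTRL arrays and 2 of 3 WT CTRL arrays. Both probes of Iars and of Lars gave alike changes.

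By structural class, 3 of 8 class I enzymes and 3 of 9 class II enzymes rose in WT by adjusted p alone, and 4 of 8 and 3 of 9 in the Mapk9 KO, where 12.7% and 18.1% of all genes did. Several cytosolic enzymes sit together in the multisynthetase complex, a scaffolded assembly. Of its 8 enzymes with a probe 2 rose in WT and 4 in the Mapk9 KO, and of the 9 outside it 4 and 3. The median change was 0.33 inside and 0.53 outside the complex in WT, and 0.40 and 0.26 in the Mapk9 KO. The order of the 2 medians was thus not the same in the 2 genotypes.

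The mitochondrial enzymes that passed the test all fell with injury. Wars2, the mitochondrial tryptophan enzyme, was the 1 of 4 enzymes that fell past 2-fold in each genotype, where 7.15% of all genes did so in WT and 9.54% in the Mapk9 KO. Lars2, the mitochondrial leucine enzyme, fell by adjusted p alone, which makes 2 of 4 in each genotype, against 12.7% and 20.3% of all genes. The 3 enzymes detected on all arrays had changes below 0 in both genotypes, with a median of -0.777 in WT and -0.828 in the Mapk9 KO. Sars2, the fourth, was detected on 1 array only. With the enzymes under older symbols, 3 of 8 fell in each genotype, Iars2 being the third. The median over the 7 of these that were detected on all arrays was -0.065 in WT and -0.37 in the Mapk9 KO, so that the size of the WT median rests on which enzymes are counted.

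Wars2 read 8.51, 8.36 and 8.08 in WT CTRL and 7.16, 7.33 and 6.94 in WT injured. Mapk9 KO arrays gave 8.18, 8.71 and 7.58 in CTRL and 7.00, 6.99 and 7.12 after injury. The injured arrays lay below all controls in both genotypes, and the Mapk9 KO controls were the most spread. Wars2 fell by 1.17 on the log2 scale in WT (SE 0.21, adjusted p = 0.0030) and by 1.12 in the Mapk9 KO (SE 0.26, adjusted p = 0.0056). Without Mapk9 KO CTRL replicate 2, the highest of the 3, the change there was -0.84, under 2-fold, with an adjusted p of 0.020. By the methods' t-test the Mapk9 KO change did not pass (adjusted p = 0.078). After quantile normalization of uncorrected intensities, the Wars2 change was -0.72 in both genotypes, under 2-fold, with adjusted p-values of 0.0022 and 0.0048. The second, dimmer Wars2 probe was undetected on all WT injured arrays and was at least 1.36-fold lower there (adjusted p = 0.021). In the Mapk9 KO that probe, detected on 2 of 3 CTRL arrays and 1 of 3 injured arrays, was at -0.58 and did not pass (adjusted p = 0.12).

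Iars2, the mitochondrial isoleucine enzyme, read 10.32, 10.24 and 10.11 in WT CTRL and 9.08, 8.96 and 9.23 in WT injured. In the Mapk9 KO it read 10.06, 10.05 and 10.07 in CTRL and 9.44, 9.29 and 9.27 after injury. The controls were tight and the injured arrays lay wholly below them. Iars2 fell by 1.13 in WT (SE 0.19, adjusted p = 0.0022), past 2-fold, and by 0.73 in the Mapk9 KO (SE 0.16, adjusted p = 0.0046). Its second probe fell by 1.14 and 0.93. No single omission ended an Iars2 call.

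Lars2 ran from 7.79 to 8.33 in WT CTRL and from 7.15 to 7.43 in WT injured. It fell by 0.78 (SE 0.21, adjusted p = 0.023) in WT and by 0.83 (SE 0.18, adjusted p = 0.0048) in the Mapk9 KO. The WT call was lost on leaving out WT CTRL replicate 1 or 3 or WT injured replicate 2 or 3, with adjusted p up to 0.089. Fars2, the mitochondrial phenylalanine enzyme, was at -0.065 (95% interval -0.47 to 0.34) in WT and at -0.37 (-0.77 to 0.020) in the Mapk9 KO. It passed in neither, but under both quantile normalizations, with and without background correction, it was called down in the Mapk9 KO. The Sars2 probe was detected on 1 WT CTRL array and on no other, so no change is given for Sars2. Ears2, Mars2 and Tars2, under older symbols, were at 0.26, 0.17 and -0.060 in WT and at 0.24, -0.021 and -0.22 in the Mapk9 KO, and none of them passed.

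**Figure D2:**
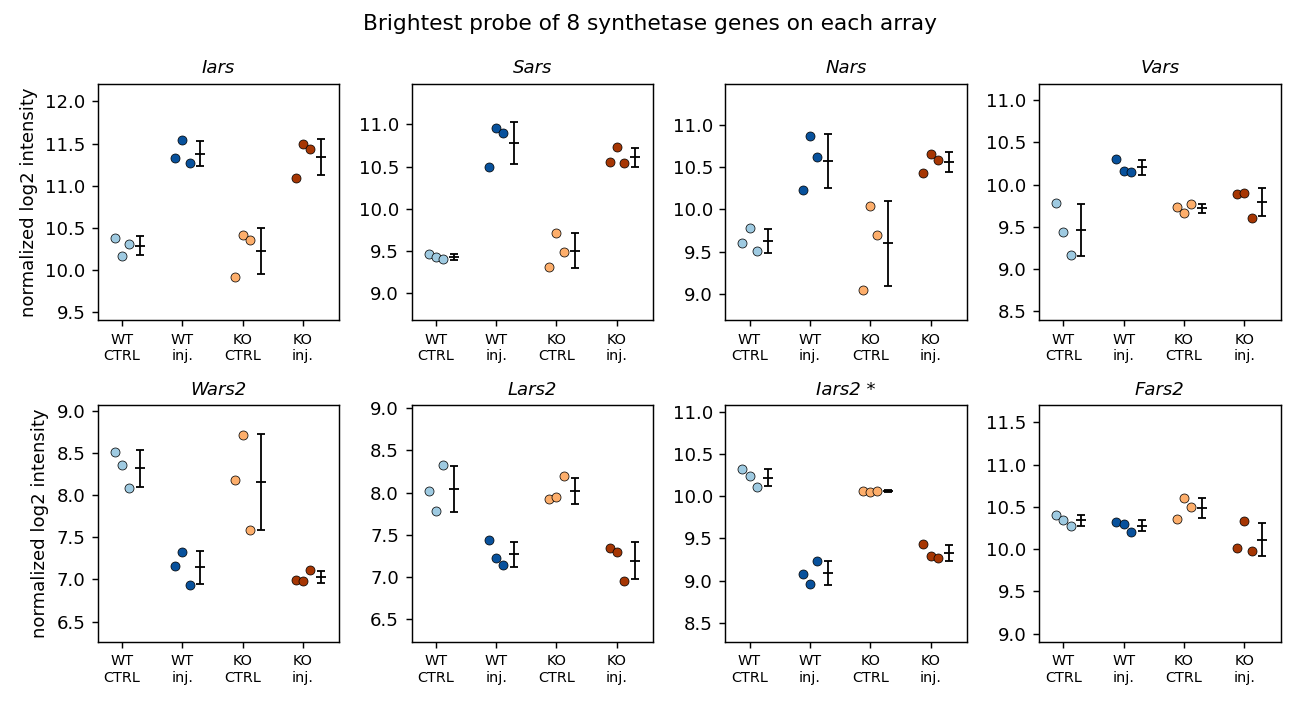
Normalized log2 intensity (y axis, the same span in each panel) of the brightest probe of 8 members on each of the 12 arrays; points are arrays and the bar beside them is the mean and SD of the 3. Iars, Sars and Nars lie higher in both injured groups, Wars2, Lars2 and Iars2 (older symbol, asterisk) lie lower, Vars is higher in WT injured, and the Fars2 difference was -0.065 in WT.

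Among the listed members, both enzymes of 7 amino acids had a probe detected on all 12 arrays. For these the difference between the cytosolic and the mitochondrial enzyme was taken on each array. The question was whether that difference shifted with injury, which cancels the level of either probe. Sars over Sars2 was left out, since Sars2 was not detected on 11 of the arrays. Rars2 and Vars2 are not listed members, so their pairs were not taken, though both were detected on all 3 arrays of each group. The shift over both genotypes was 2.03 log2 units for Iars over Iars2, 1.42 for Lars over Lars2 and 1.20 for Wars over Wars2. In these 3 pairs, each injured array was above each control array of its genotype. For isoleucine and leucine both enzymes passed the test, in opposite directions, whereas for tryptophan Wars was at 0.084 and 0.025 and only Wars2 passed. The shifts were 0.26 for Farsb over Fars2, 0.43 for Mars over Mars2 and 0.47 for Tars over Tars2. Farsa, the other listed cytosolic phenylalanine gene, was also detected on all 12 arrays, but its difference to Fars2 was not taken. In WT Farsa was at -0.14 and Fars2 at -0.065, and in the Mapk9 KO they were at 0.079 and -0.37. The phenylalanine result therefore holds for Farsb only. For Eprs, which also charges proline, over Ears2, the glutamate enzyme of mitochondria, the shift was 0.26. When CTRL and injured were exchanged only between arrays of the same replicate number, an exact two-sided permutation (64 rearrangements) gave p = 0.031, the smallest it can give, for the Iars, Lars, Wars and Farsb pairs, in which the injured array was the higher in 6 of 6 same-numbered pairs of arrays, 3 in each genotype. The same exact permutation gave p = 0.062 for Mars and Tars and 0.16 for Eprs, each with 5 of 6. Adjusted over the 7 pairs by Benjamini-Hochberg, these exact p-values were 0.055, 0.073 and 0.16, so no shift passed at 0.05 with the pairing kept. Without the pairing, exact permutation of the labels within each genotype (400 rearrangements) gave adjusted p-values of 0.0088 for the first 4 pairs, 0.014 for Mars, 0.035 for Tars and 0.17 for Eprs. Both tests were chosen after the values were known.

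**Figure D3:**
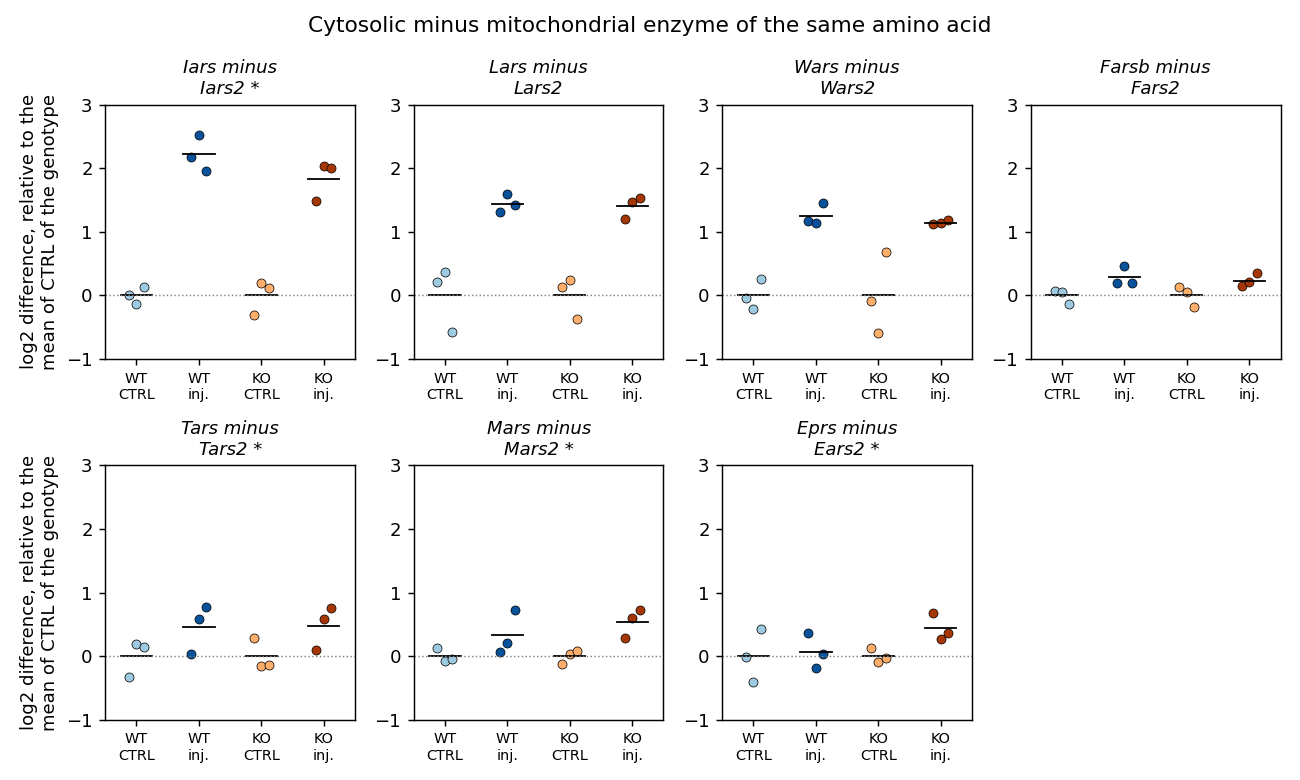
Log2 difference between the cytosolic and the mitochondrial enzyme of the same amino acid on each array, for 7 pairs, relative to the mean of the CTRL arrays of the same genotype (y axis, common to all panels). Points are arrays and lines are the means of 3; asterisks mark enzymes found under an older symbol. The injured arrays are highest for Iars minus Iars2, where the mean shift was 2.22 in WT and 1.84 in the Mapk9 KO.

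The 2 genotypes were compared directly. No member was called between Mapk9 KO and WT in CTRL hips (0 of 22, where 0.110% of all genes were called) or in injured hips (0 of 22, where 0.168% were). No member was called for a difference between genotypes in its change with injury, but neither was any other gene (0 of 15434, or 0%, by limma). At an unadjusted p under 0.05 the counts of members were 0 of 22 in CTRL, 1 of 22 in injured hips and 2 of 22 for the interaction. Among all genes such values made up 6.39% in CTRL, 10.9% in injured hips and 8.82% for the interaction. The 2 members were Vars and Kars. The controls of the 2 genotypes also differed in muscle signal. All 10 skeletal muscle markers described below were higher in Mapk9 KO CTRL than in WT CTRL (median log2 difference 1.02), though none was called. Of the 10, 7 had an unadjusted p under 0.05 by limma, against 6.39% of all genes. The part of muscle in the genotype comparisons was not tested.

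Vars, the valine enzyme, is described here because its value was seen to differ between the genotypes. It read 9.78, 9.44 and 9.17 in WT CTRL and 10.30, 10.16 and 10.15 in WT injured. In the Mapk9 KO it read 9.73, 9.66 and 9.77 in CTRL and 9.89, 9.90 and 9.60 after injury. The injured arrays were above the controls in WT and overlapped them in the Mapk9 KO. The log2 difference was 0.74 (SE 0.21, adjusted p = 0.030) in WT and 0.076 (SE 0.17, adjusted p = 0.77) in the Mapk9 KO. The difference of the 2 changes was -0.66 (95% interval -1.21 to -0.12) and did not pass, with an adjusted p of 0.42, or 0.17 with the replicate number as a block. The WT call itself was lost on leaving out WT CTRL replicate 3 or any WT injured array, with adjusted p up to 0.094.

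Vars had 2 more probes, whose first 30 bases are shown with those of the brightest because the file, which places the gene on chromosome 17, lists the first and the third at the same start of the transcript, base 11, although their letters differ. The second probe rose by 0.87 in WT (adjusted p = 0.014) and was at 0.14 in the Mapk9 KO (adjusted p = 0.55), like the brightest. The third was detected on 1 of the 12 arrays and gave no usable value.
Vars probe 1: ttccagaagatgctgtgaccccccattcca
Vars probe 2: gccccttgaggtccaggaggcagatgaagc
Vars probe 3: attgagaccatgctgggagacgtggctgta

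Kars was at 0.30 (SE 0.22) in WT and at -0.28 (SE 0.16) in the Mapk9 KO at its brightest probe, neither of which passed. The difference was -0.59 (95% interval -1.12 to -0.052, adjusted p = 0.45). The dimmer Kars probe, detected on 5 of the 12 arrays and on 0 of the 3 WT injured arrays, gives no value for this difference. For Iars, Sars, Nars and Wars2 the difference between the genotypes was 0.016 (-0.55 to 0.58), -0.25 (-0.78 to 0.29), 0.015 (-0.71 to 0.74) and 0.049 (-0.69 to 0.79). The intervals of Sars, Nars and Wars2 include a difference of the size and sign measured for Vars.

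The neighbouring genes of the pathway were read from lists chosen with earlier results of these data known. Of the 3 scaffolds of the multisynthetase complex, Eef1e1 rose in WT (0.83, adjusted p = 0.018) and was at 0.49 in the Mapk9 KO (adjusted p = 0.089), and Aimp1 and Aimp2 lay between -0.17 and 0.23. Of 11 further genes that charge tRNA in mitochondria, 5 had a probe. By adjusted p alone 1 of the 5 fell in WT and 2 in the Mapk9 KO, where 12.7% and 20.3% of all genes did, and 0 rose. Gatb (file symbol Pet112l), a subunit of the amidotransferase that makes glutaminyl-tRNA there, fell by 0.63 in WT (adjusted p = 0.045) and by 0.99 in the Mapk9 KO (adjusted p = 0.0021). Rars2 (Rarsl), the mitochondrial arginine enzyme, fell by 0.69 in the Mapk9 KO (adjusted p = 0.014) and was at -0.46 in WT (adjusted p = 0.12). Vars2, the mitochondrial valine enzyme, and Qrsl1, another subunit of the amidotransferase, were at -0.11 and -0.33 in WT and at -0.25 and -0.25 in the Mapk9 KO. Pars2, the mitochondrial proline enzyme, was detected on no WT injured array and on 1 of 3 Mapk9 KO injured arrays, and no change is given for it. Gatb was detected on 2 of 3 arrays of each injured group.

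Of the factors that use the charged tRNAs, 0 of 5 cytosolic elongation factors passed in WT. Among all genes 12.7% rose and 12.7% fell there. In the Mapk9 KO 1 of the 5 rose, where 18.1% of all genes did. That was Eef2, which moves the ribosome along the message, at 0.82 (adjusted p = 0.017) against -0.30 in WT (adjusted p = 0.31), and the difference of 1.12 (SE 0.31) did not pass (adjusted p = 0.31). Of 8 mitochondrial translation factors 3 had a probe. By adjusted p alone 1 of the 3 fell in each genotype, where 12.7% and 20.3% of all genes did. Mtrf1, a release factor, fell by 0.87 in WT (adjusted p = 0.012) and by 0.83 in the Mapk9 KO (adjusted p = 0.0090). Tufm, the mitochondrial elongation factor that carries tRNA to the ribosome, was at 0.10 and -0.42 and did not pass. Mrrf, the third, was at -0.39 in WT and 0.21 in the Mapk9 KO and did not pass either.

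Of the 15 genes of the ATF4 response with a probe (19 listed), 12 rose past 2-fold in WT and 13 in the Mapk9 KO, where 7.50% and 9.0% of all genes did, with median changes of 1.68 and 1.60. Asns, which makes asparagine, changed by 1.66 and 1.505, Trib3, a feedback inhibitor of ATF4, by 4.17 and 4.81, and Atf4 itself by 1.16 and 1.06. Phgdh, the first enzyme of serine synthesis, was at 0.00032 in WT (adjusted p = 0.9995) and rose by 1.10 in the Mapk9 KO (adjusted p = 0.0029). Of 8 amino acid transporters with a probe 6 rose past 2-fold in each genotype, Slc7a5, which takes up leucine, by 1.80 and 1.79. Among the synthetases with a CARE in the window and a probe, Iars and Aars rose in both genotypes, and Gars and Tars passed in neither by the fit without a block. Sars, with the largest change in WT, has a window without the motif. Lars, Mars, Nars and Vars, also called in at least 1 genotype, had no window to read.

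Marker genes of other cell types moved with injury as well, and these hips are mixtures in which fewer cells of a type and less RNA per cell cannot be told apart. The mean log2 intensity of 10 skeletal muscle markers ran from 11.76 to 12.94 in WT CTRL and from 8.81 to 10.9 in WT injured. For Mapk9 KO arrays it ran from 13.1 to 13.6 and from 9.32 to 10.6. Of these 10 genes 9 fell past 2-fold in WT and 10 in the Mapk9 KO, against 7.15% and 9.54% of all genes. The mean of the 7 chondrocyte markers with a probe (11 listed) ran from 10.3 to 10.9 in WT CTRL and from 11.9 to 12.2 in WT injured, and from 10.2 to 10.9 and from 11.96 to 12.20 in the Mapk9 KO. Of these 7 genes 6 rose by adjusted p alone in each genotype, against 12.7% and 18.1%. The fall of Wars2, Lars2 and Iars2 and the rise of the called cytosolic enzymes went with less muscle signal and more chondrocyte signal on the same arrays, and the part of either in the result was not tested. Leukocyte and osteoblast markers were present throughout, with array means of 10.8 to 11.6 and 12.6 to 13.6, and single genes among them changed. Of the 4 osteoblast markers with a probe, Sp7 fell in WT and in the Mapk9 KO (-1.14 and -1.19) and Col1a1 in the Mapk9 KO (-1.04). Of the 4 leukocyte markers, Itgam rose by 0.82 in both genotypes and Cd68 fell in the Mapk9 KO (-1.40). Their part in the synthetase results was not tested either.

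**Figure D4:**
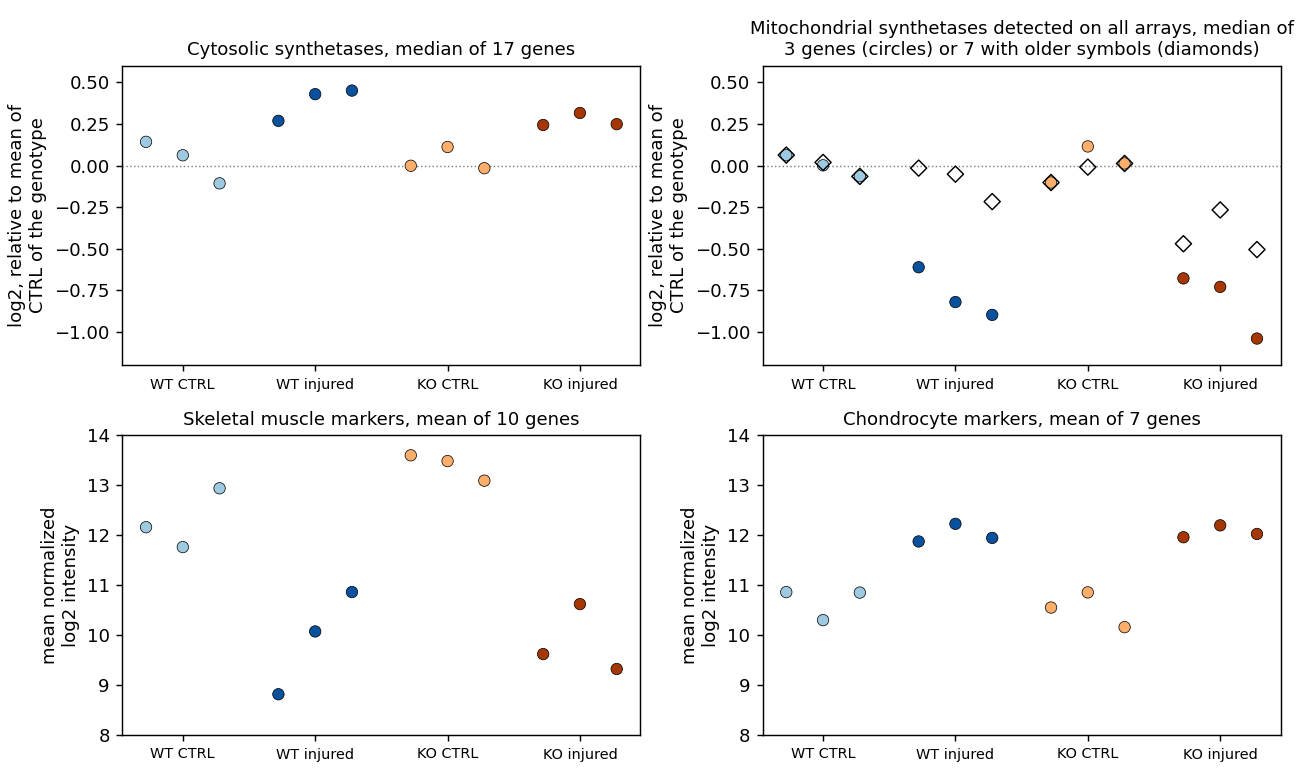
Upper panels show, for each array, the median over the 17 cytosolic synthetases and over the 3 mitochondrial synthetases detected on all arrays (circles; diamonds, 7 with older symbols) of the log2 value relative to the mean of the CTRL arrays of the same genotype. Lower panels show the mean normalized log2 intensity of 10 skeletal muscle and 7 chondrocyte markers on the same arrays. The synthetase medians are 0.24 to 0.45 for the cytosolic and -1.04 to -0.61 for the 3 mitochondrial enzymes, or -0.51 to -0.016 for the 7, on the 6 injured arrays, where muscle markers are lower and chondrocyte markers higher than in CTRL.

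By array, 16, 17 and 15 of the 17 cytosolic enzymes were above their WT CTRL mean on the 3 WT injured arrays, and 10, 14 and 12 were above their Mapk9 KO CTRL mean on the Mapk9 KO injured arrays. Of the 3 mitochondrial enzymes detected on all arrays 0 were above it on any injured array, but of the 7 with older symbols 3, 2 and 2 were on the WT injured arrays and 1, 2 and 1 on the Mapk9 KO injured arrays. With Farsa, 17, 17 and 15 of 18 cytosolic enzymes were above it in WT injured and 11, 15 and 13 in Mapk9 KO injured. Over the series 16833 to 18530 features were detected per array, array medians of log2 intensity lay between 7.55 and 7.70, and arrays correlated at 0.868 to 0.986 with no pair identical. Mapk9 itself, the check of the labels, lay between 10.1 and 10.9 on the 6 WT arrays and between 8.69 and 9.28 on the 6 Mapk9 KO arrays.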

How the data were processed

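RNA was hybridized to Illumina mouse BeadChips. Per the study's methods, the authors subtracted an array-specific background, estimated from negative-control probes, and then applied the vsn transformation, whose version is not given in the sources used here. The deposited normalized values are on a log2 scale and cover 21004 of 45281 probes (46.4%). The deposited raw table holds the summarised intensity of every probe and a detection p-value, both from the authors' scanner software, and these served for detection and for alternative normalizations.

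Injured and CTRL arrays of a genotype, and Mapk9 KO and WT arrays of a condition, were compared with limma 3.58.1 (lmFit, eBayes; R 4.3.3) on the 6 arrays concerned, and the interaction on all 12, with Benjamini-Hochberg adjustment over all features. A gene was counted at its brightest probe, past the threshold when over 2-fold with adjusted p under 0.05. The fits were tested on simulated data. Any member with a probe could be named, and values on every array are given for members past the threshold in either genotype, and for Vars. The members and lists were chosen with earlier results of these data known. The precision is limited by 3 arrays per group.

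Replicate numbers, taken from the labels, appeared to pair the samples: deviations from group means correlated at 0.153 to 0.390 between same-numbered arrays (18 pairs, median 0.249) and at -0.289 to 0.0825 between others (36 pairs). Alternatives were 2 quantile normalizations, array centring, a detection filter, a fit on all arrays, the methods' t-test, replicate and label-code blocks, any probe per gene, omission of each array and, chosen after seeing the data, members under older symbols.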

Additional observations from a re-analysis of the deposited data

How the results depend on the processing

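The medians over the 17 cytosolic and the 4 mitochondrial enzymes kept their sign under the other normalizations, array centring, the detection filter, the omission of each array and the counting of older symbols, the settings for which a median was taken. The mitochondrial medians here include Sars2, detected on 1 array only, unless said otherwise. With normexp background correction and quantile normalization, 1 cytosolic enzyme was past 2-fold in WT and the WT cytosolic median was 0.296. By adjusted p alone 4 cytosolic enzymes then rose in WT, since Aars (adjusted p = 0.066) and Lars (adjusted p = 0.052) were lost. With quantile normalization without background correction, 1 cytosolic enzyme was past 2-fold in each genotype and 0 mitochondrial enzymes were, and the medians were 0.244 for the cytosolic enzymes in WT and -0.313 and -0.457 for the mitochondrial enzymes in WT and Mapk9 KO; the cause was not tested. By the methods' t-test, after Benjamini-Hochberg adjustment on the same values, 2 cytosolic enzymes rose in WT and 1 mitochondrial enzyme fell in each genotype. Past 2-fold in the Mapk9 KO by that test were 2 cytosolic enzymes and 0 mitochondrial ones. Keeping only probes detected on at least 3 arrays removes Sars2 and gave mitochondrial medians of -0.777 and -0.828. Counting members under older symbols adds 4 mitochondrial enzymes and gave 2 past 2-fold in WT and medians of -0.107, within the spread between arrays (0.119), and -0.444.

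On leaving out each array in turn, the cytosolic enzymes past 2-fold numbered 2 to 3 in WT and 1 to 3 in the Mapk9 KO, those up by adjusted p alone 2 to 5 and 4 to 6, and their medians lay between 0.331 and 0.531 and between 0.271 and 0.464. The mitochondrial enzymes past 2-fold numbered 1 to 1 and 0 to 1, those down by adjusted p alone 1 to 2 and 2 to 3, and their medians lay between -0.653 and -0.400 and between -0.816 and -0.539. Over the 3 detected on all arrays these ranges were -0.906 to -0.633 and -0.902 to -0.704, and 1 to 2 and 2 to 2 were down. The counts between genotypes and for the interaction were 0 in every such fit. For single named enzymes under these settings, 224 values kept their call and 42 lost it, and none changed sign. With the replicate number as a block, the cytosolic enzymes up by adjusted p alone were 6 in WT and 8 in the Mapk9 KO, and the mitochondrial enzymes down were 2 and 3, through Gars and Sars2, but Sars2 was detected on no Mapk9 KO array in either group, so its value there is no change between measured levels; the pairing changed no other call of these counts.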
